A study of Homo sapiens with 6 samples.

Results

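The cytosolic ribosome is built from ribosomal RNA and a large set of proteins, most of them present once per ribosome, and this text describes DNA methylation at the genes of those proteins in M07e cells with and without DNMT3B. Members were all autosomal protein-coding RefSeq genes whose symbol is RPL or RPS followed by a digit, or RPLP0, RPLP1, RPLP2 or RPSA, leaving out RPS6 kinase genes, ribosomal protein-like genes and readthroughs. That rule gave 74 genes: 40 of the large subunit, 3 of the stalk, 30 of the small subunit, and RPS19BP1, which fits the wording of the rule but encodes a protein that binds RPS19 and is no part of the ribosome. A region was taken when it overlapped a member or lay within 5 kb of it. The authors' deposited table holds 35130 regions, of which 88 were taken, belonging to 40 of the 74 genes. Chromosome 19, which holds 12 of the members, has 33 of the 88. Over the whole annotation, 12327 of 19122 autosomal protein-coding genes had at least 1 region.

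M07e is a line of acute megakaryoblastic leukemia cells grown with GM-CSF. Methylation was measured by reduced representation bisulfite sequencing, in which the enzyme MspI cuts at CCGG, so that reads come mostly from CpG-rich DNA. The control group has 3 libraries of M07e with the genotype given as WT, and the other group has 3 libraries of M07e carrying a DNMT3B knockout made with CRISPR. The labels do not say whether replicates are separate cultures, nor from how many clones the knockout cells were derived. All levels below are group means of the authors' deposited table, as methylation levels in percent, with no value for a single library. Depth and spread between libraries are therefore unknown, and no level has a replicate error. One column is named for WT; the other, M07e_3883, appears in no label and was read as the knockout, so each direction given here depends on that reading.

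DNMT3B is one of the enzymes that place methyl groups on CpG sites that carried none. Ribosomal protein genes are transcribed in all growing cells, and most of their promoters lie in CpG islands, which are usually free of methylation. Their transcripts start with a run of pyrimidines, the 5′ terminal oligopyrimidine tract, through which growth signals set how strongly they are translated. Many hold small nucleolar RNA genes in their introns, and loss of 1 copy of several of them causes Diamond-Blackfan anemia, a failure of red cell production.

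The following stretches show what was measured at these promoters, for 6 members whose region lies upstream of the annotated start. Each runs 5′ to 3′ on the gene's strand, comes from the RefSeq promoter table (GRCh38.p14), and has the CpG sites of the deposited region in capitals. RPS9 is chr19:54200767-54200843 on the plus strand, RPS7 chr2:3575150-3575245 plus, RPL18 chr19:48619194-48619244 minus, RPS26 chr12:56041863-56041908 plus, RPL13 chr16:89560407-89560455 plus, and RPL28 chr19:55385755-55385809 plus.
RPS9: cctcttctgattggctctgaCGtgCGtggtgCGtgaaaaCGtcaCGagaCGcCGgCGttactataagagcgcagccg
RPS7: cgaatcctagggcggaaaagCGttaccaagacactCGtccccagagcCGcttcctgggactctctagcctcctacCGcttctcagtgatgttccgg
RPL18: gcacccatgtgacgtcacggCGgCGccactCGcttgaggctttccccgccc
RPS26: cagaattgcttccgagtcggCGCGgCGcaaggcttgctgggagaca
RPL13: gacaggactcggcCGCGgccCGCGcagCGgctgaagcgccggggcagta
RPL28: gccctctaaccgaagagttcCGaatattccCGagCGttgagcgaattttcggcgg

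At all 6 of these stretches, the level was under 10% in both groups. RPS9, a small subunit protein that takes part in decoding accuracy, had 0.372% in the control and 4.17% in the knockout over 8 CpG sites, the widest difference of the 6. RPS7 went from 3.62% to 1.46%, RPS26 from 3.23% to 1.67% and RPL28 from 3.05% to 0.778%. RPL18 went from 0.631% to 2.38% and RPL13 from 0.622% to 2.13%. The sign thus differed between members, while the size of each difference stayed under 5 points.

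A second feature shared by the members is the pyrimidine run at the start, which the rule did not use. The next stretches give the 10 bases before the annotated start and the first bases of the transcript, with the run counted from the start in capitals. They are shown for members to which the results below return: RPL13A (chr19:49487598-49487622, plus), RPS9 (chr19:54200848-54200872, plus), RPL18 (chr19:48619164-48619188, minus), RPLP2 (chr11:809957-809981, plus), RPS24 (chr10:78033853-78033877, plus) and RPL10A (chr6:35468391-35468415, plus).
RPL13A: aaacctcctcCTTTTCCaagcggct
RPS9: gcttccgcgcCTCTTTCTCagtgac
RPL18: agcccgttctCTCTTTCCggacctg
RPLP2: tcggcgccttCCTTTTCCTCCCTgt
RPS24: aatcgtggttCTCTTTTCCTCCTTg
RPL10A: aagacatgctagtctcttttccggt

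The run was 7 bases in RPL13A, 9 in RPS9, 8 in RPL18, 13 in RPLP2 and 14 in RPS24. RPL10A had none at its listed start, although a pyrimidine-rich stretch follows a few bases on. A promoter window, from 250 bases before to 50 bases after a listed start, was found for 58 of the 74 members and for 15100 genes in all. A run of at least 5 pyrimidines began at a listed start in 43 of the 58 (74.1%) and in 6.69% of all genes. A run of at least 8 began there in 23 (39.7%) and in 2.50% of all.

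Other letters searched on both strands were CCGG (the MspI site), GGGCGG (the SP1 box), CCGGAAG (an ETS site, which contains CCGG) and ATGGCG (the YY1 core). CCGG was present in 89.7% of the members' windows and 76.1% of all windows, and GGGCGG in 53.4% and 58.9%. CCGGAAG was present in 34.5% and 14.4%, and ATGGCG in 32.8% and 14.3%. The median window held 24 CG dinucleotides in the members and 22 overall. Such matches describe the letters only. Members are also short, with a median length of 4750 bases against 24490.5 for all protein-coding genes, and 27 of the 74 (36.5%) hold at least 1 small nucleolar RNA gene, against 2.64% of all. None of the 88 regions overlapped such an RNA gene.

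Near their starts, ribosomal protein genes were almost free of methylation in both groups. Of the 74 members, 31 had a region within 1000 bases of a listed start, 36 regions in all. The strand is known for the 58 members with a promoter window, and for the other 16 both ends of the gene were tried as the start. Some near-start regions of those 16 may therefore lie at the far end of the gene. In the control the median level of the 36 was 1.69% (quartiles 0.679% and 3.25%), and in the knockout it was 1.66% (quartiles 0.859% and 3.14%). The knockout mean was higher in 17 regions and lower in 19, and the median difference was -0.43 points (95% interval over regions -1.56 to 1.75). Both means were under 10% in 33 of the 36 regions (91.7%, exact Clopper-Pearson 95% interval 77.5 to 98.2). Without RPS19BP1 this held for 30 of 33 (90.9%). The same share over the 11341 regions near the start of any autosomal protein-coding gene was 38.2% (37.3 to 39.1). Over those 11341 the median difference was 1.91 points (1.80 to 2.05). These intervals treat regions as independent and cover no spread between libraries. The 2 sets also differ in size of region: 75% of the 36 had exactly 5 sites, against 42.5% of the 11341. Whether this bears on the shares was not tested.

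**Figure D1:**
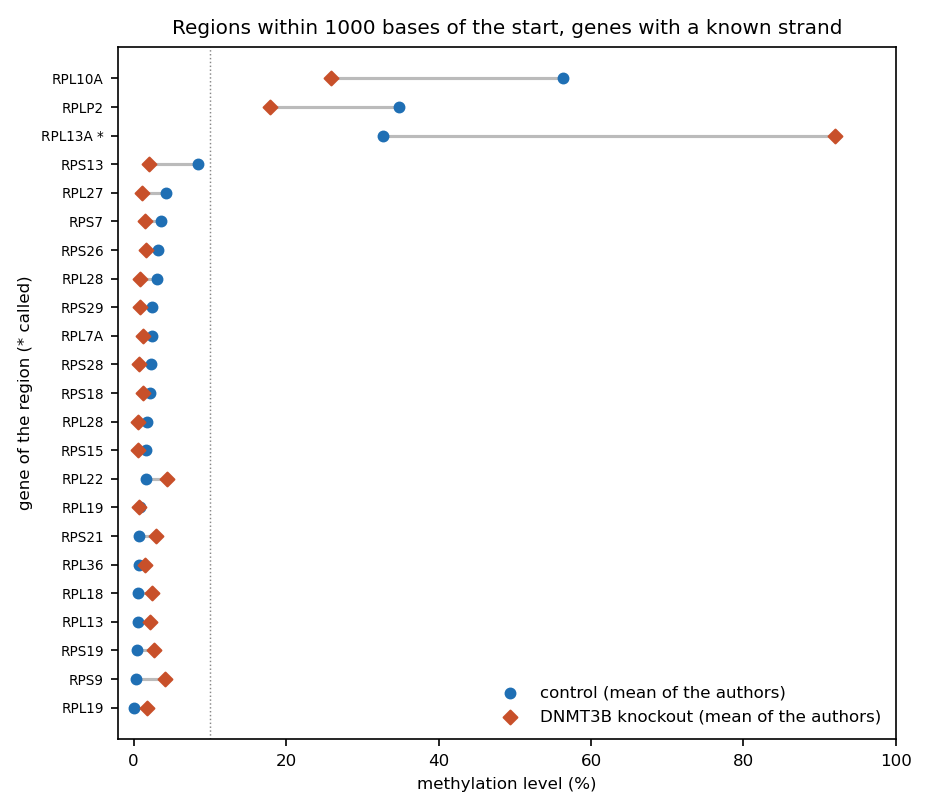
Methylation level (%) in the control (circles) and the DNMT3B knockout (diamonds) for the 23 regions within 1000 bases of the start of a ribosomal protein gene whose strand is known, 1 line per region, with the 10% level dotted. All but the regions of RPL10A, RPLP2 and RPL13A, the last of them called, lie under 10% in both groups.

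The 3 exceptions all lay beyond 250 bases from the start. All 19 regions within 250 bases of a start were under 10% in both groups, with a highest control mean of 4.50%, at RPL7, and a highest knockout mean of 5.04%, at RPL37. Of the 17 regions beyond 250 bases, 14 were under 10%. Restricting the count to members whose strand is known gave 20 of 23 regions (87.0%), beside 40.9% for all such genes, and the members for which both ends were tried gave 13 of 13. In 28 of the 31 genes every region near the start was under 10% in both groups.

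Small subunit genes had no exception: all 18 of their near-start regions, in 15 genes, were under 10% in both groups, RPS19BP1 included. RPS19, the gene most often mutated in Diamond-Blackfan anemia, had 0.391% in the control and 2.62% in the knockout, 8 bases before a listed start. RPS13 had the highest control level of the subunit, 8.49%, with 1.99% in the knockout, 581 bases upstream. RPS13 was thus lower in the knockout and RPS19 higher, and neither differed by 10 points. RPS28, RPS29, RPS18 and RPS15 were lower in the knockout (2.33% to 0.712%, 2.44% to 0.886%, 2.11% to 1.27% and 1.69% to 0.604%). RPS21 was higher (0.721% to 2.99%). RPS2, which had a pair of near-start regions 5 bases apart, went from 3.31% to 0% in one and from 0% to 0.417% in the other. Neighbouring regions at 1 end of the gene, whose strand is not given, thus differed in sign. RPS19BP1, the gene that encodes no ribosomal protein, has no strand given, so regions at both of its ends were counted as near start. At 259 and 302 bases from 1 end the levels were 0.420% to 3.34% and 1.57% to 0.697%. At 84 bases from the other end they were 0.799% to 2.70%. These 3 regions thus do not all lie near the same start. A flank region of RPS19BP1 had 10.7% to 21.7%.

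Large subunit genes had 17 near-start regions in 15 genes, of which 15 were under 10% in both groups. RPL27, a Diamond-Blackfan gene, went from 4.30% to 1.05% over 9 sites, 393 bases downstream of the nearest listed start, and had q = 0.00120 in the authors' deposited table, the lowest of the 88. Its difference was small all the same, so it did not reach the 25 points asked for below. RPL22, which binds RNA and whose loss affects lymphoid cells, went from 1.67% to 4.42%. RPL8 went from 1.28% to 4.33% and RPL37 from 1.69% to 5.04%. RPL7 went from 4.50% to 0.595% and RPL7A from 2.38% to 1.17%. RPL19 had a pair of near-start regions at 0.0660% to 1.72% and 0.887% to 0.687%. Differences in both directions were therefore present among large subunit genes too, on a scale of a few points.

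Counts of sites need a word here. In the regions that lie wholly inside a promoter window, the deposited site number exceeded the number of CpG dinucleotides in 1840 of 2419, and never exceeded the cytosines of both strands, so a CpG appears to be counted once per strand. The median region of the members had 5 sites, the lowest number among them, and 52 of the 88 had exactly 5 (59.1%, against 39.8% of all regions).

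Among the 3 genes with a near-start region above 10%, RPL13A stood out by size. RPL13A encodes a large subunit protein that can leave the ribosome and join a complex that silences inflammatory transcripts. Its region, chromosome 19, 49486908 to 49486974, lies 634 bases before the start, between RPL13A and FLT3LG, the gene of the FLT3 ligand, which is 677 bases away. The level was 32.7% in the control and 92.0% in the knockout over 5 sites, a difference of 59.3 points (q = 0.00637 in the authors' deposited table). It is the only region of RPL13A, so no neighbouring value exists for it, and its letters are not shown because it lies outside the promoter window.

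RPL10A, which encodes another large subunit protein, had a lower mean in the knockout. Its 1 region, chromosome 6, 35468034 to 35468043, lies 358 bases before the start and was not called, at 56.3% in control cells and 25.9% in knockout cells over 5 sites (q = 0.0743 in the authors' deposited table). RPLP2, an acidic stalk protein that helps recruit translation factors with GTPase activity, had 34.8% in the control and 17.9% in the knockout in a region that begins 744 bases downstream of its listed start (chromosome 11, 810711 to 810969, q = 0.478 in the authors' deposited table). Its other region, 4728 bases upstream and inside PIDD1, had 0.734% and 2.41%. The stalk genes RPLP0 and RPLP1 had no region.

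To call a region, a q below 0.01 in the authors' deposited table and at least 25 points between the means were asked for. By that rule 2 of the 88 member regions (2.27%) were called higher in the knockout, at RPL13A and RPL23A, and none was called lower. Over all regions, 4.57% were called higher and 2.17% lower. Counted by gene, 2 of the 40 members with a region had a called one, beside 16.1% of the 12327 protein-coding genes with a region. Near starts, 1 of the 36 regions was called, beside 9.43% of near-start regions of all protein-coding genes. The members' shares lie under all of these background shares, on 2 called regions only. How the q-value was derived is not given in the sources at hand, nor whether it takes in the spread over libraries.

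**Figure D2:**
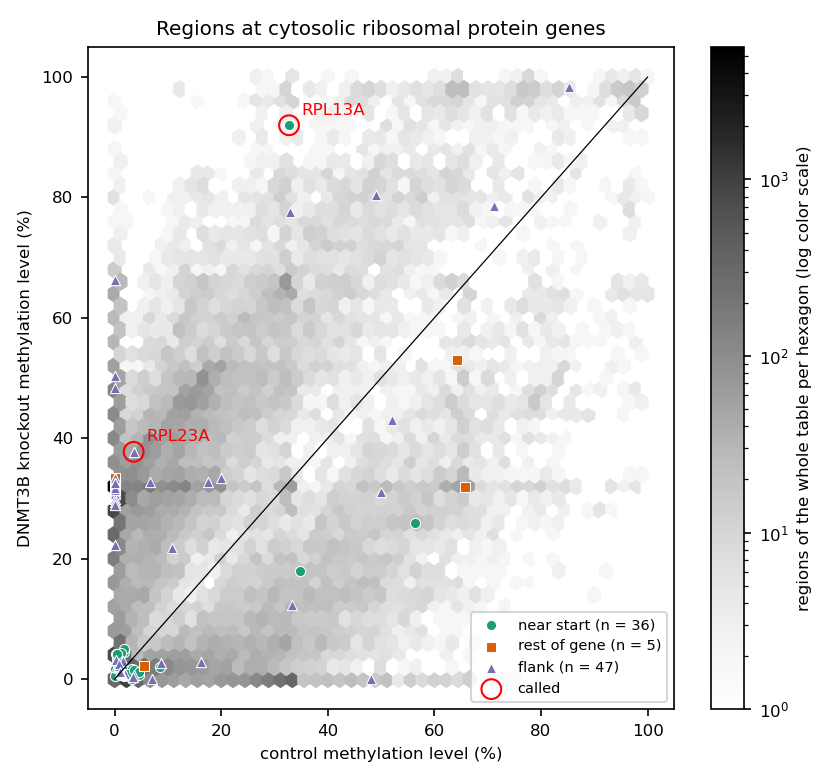
Control level (x axis, %) against DNMT3B knockout level (y axis, %) for the 88 member regions by position (circles near start, squares rest of gene, triangles flank), over all 35130 regions of the table as grey hexagons with a log color scale. Of the near-start regions 33 of 36 crowd at the origin, flank regions form a column at a control level of 0, and the called regions of RPL13A and RPL23A are ringed.

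RPL23A sits at the exit of the ribosome's tunnel, where the signal recognition particle docks. Its called region, chromosome 17, 28717686 to 28718031, was 3.57% in the control and 37.7% in the knockout over 28 sites, 34.2 points apart (q = 0.00165 in the authors' deposited table). The region lies 1954 bases from RPL23A and inside RAB34, the gene of a small GTPase that acts in cilium formation, at a start of RAB34. The stretch of this region that falls before that start is shown on the strand of RAB34, chr17:28717869-28718051, minus, with the CpG sites of the region in capitals.
RAB34: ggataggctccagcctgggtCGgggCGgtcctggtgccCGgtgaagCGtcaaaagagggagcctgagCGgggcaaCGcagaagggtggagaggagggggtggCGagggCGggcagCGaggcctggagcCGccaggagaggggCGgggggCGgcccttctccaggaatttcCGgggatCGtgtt

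At RPL23A itself the levels were low. Its near-start region had 1.89% in the control and 1.23% in the knockout, and a region inside the gene 5.42% and 2.08%. A further region beside it, inside TLCD1, had 0.222% and 2.07%. Of 4 regions assigned to RPL23A, the one with a called difference is thus the one at the start of RAB34.

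Besides RPL13A, RPL23A and RPL27, 1 more region had q under 0.01. It was assigned to RPS18 but lies inside B3GALT4, a galactosyltransferase gene, 608 bases from RPS18 (chromosome 6, 33277119 to 33277387). Control cells had 16.2% there and knockout cells 2.82% (q = 0.00327 in the authors' deposited table), a difference of 13.4 points in size. RPS18's own near-start region, 87 bases upstream, stayed at 2.11% and 1.27%.

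Away from the starts the levels were of another kind. Of the 88 regions, 5 lay in the rest of a member gene and 47 in the flanks, and 16 of these 52 were under 10% in both groups (30.8%, 18.7 to 45.1). Their median was 0.986% in control cells and 31.1% in knockout cells, a median difference of 13.2 points, with 37 higher and 15 lower. For flank regions of all protein-coding genes, 10.8% were under 10% in both groups and the median difference was 20.1 points. That set leaves out regions inside any protein-coding gene or near the start of one. For the 47 member flank regions the share was 31.9% and the median difference 13.3 points. Member regions were not filtered in this way, and 27 of the 52 lay inside another gene, so the flank sets are unlike.

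**Figure D3:**
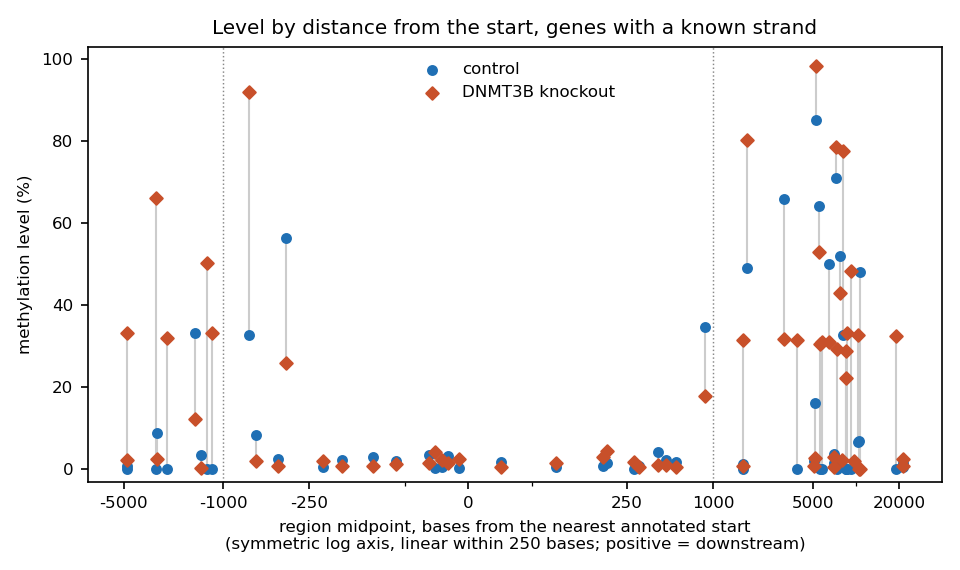
Methylation level (%) in the control (circles) and the knockout (diamonds) of each region by the distance of its midpoint from the nearest annotated start, in bases on a symmetric log axis (linear within 250 bases, positive downstream), for members with a known strand. Levels lie close to 0 around the start, and separated pairs appear beyond 1000 bases on both sides, together with the near-start pairs of RPL13A, RPL10A and RPLP2.

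Ribosomal protein genes are short and lie in gene-dense DNA, so that many of these regions belong as much to a neighbour. Of the 88, 62 lay outside the member's span, 31 lay inside another protein-coding gene and 42 were closer to another protein-coding gene than to the member. Among the 52 regions away from a member's start, 20 lay within 1000 bases of a listed start of another gene. Of these 20, 12 were under 10% in both groups (60.0%). The other 32 lay near no listed start, and 4 of them were under 10% (12.5%), with a median of 0% in the control and 32.3% in the knockout. Neighbours without a promoter window were not checked, so some of the 32 may lie at a start. One of them, assigned to RPS15, lay 834 bases from APC2. Low levels were thus also found at the starts of neighbouring genes, though 6 of the 20 regions near such a start differed by at least 25 points. Regions of RPL18, RPL23A, RPL35A and RPL38 were among these 6.

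**Figure D4:**
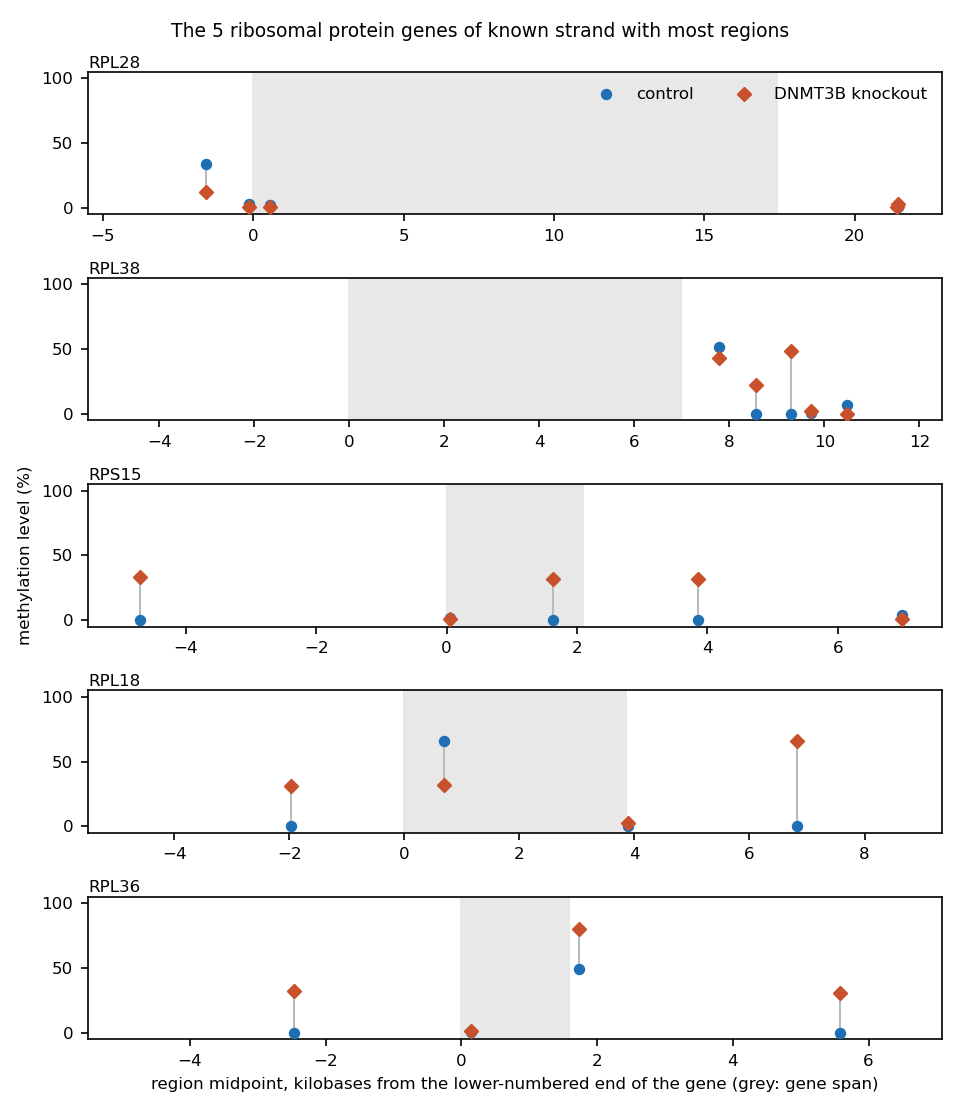
Methylation level (%) in the control (circles) and the knockout (diamonds) along RPL28, RPL38, RPS15, RPL18 and RPL36, by distance in kilobases from the lower-numbered end of the gene, whose span is grey. Pairs at the gene's start lie near 0, while most separated pairs lie outside the grey span.

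RPL28, RPL38 and the small subunit gene RPS15 had 5 regions each, and RPL18 and RPL36 had 4. At RPL28 the near-start levels of 3.05% to 0.778% and 1.70% to 0.537% lay beside a region 1556 bases upstream, at TMEM238, that went from 33.33% to 12.3% over 8 sites. The remaining pair of RPL28 regions, at the start of UBE2S, a ubiquitin-conjugating enzyme gene, had 1.47% to 0.772% and 0.636% to 2.60%. No region of RPL28 had a q under 0.1.

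RPL38, which is needed in the mouse for translation of some Hox transcripts, had no near-start region. Its 5 regions lie downstream, towards TTYH2, a gene of the tweety family. From the nearest outwards they went from 52.0% to 43.1%, from 0% to 22.3%, from 0% to 48.4%, from 0.627% to 1.98% and from 6.98% to 0%. The region at 48.4% in the knockout and those beyond it lay within 1000 bases of a listed start of TTYH2. Levels thus differed between neighbouring regions over a short stretch of DNA, and none had a q under 1.

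RPS15 kept 1.69% to 0.604% at its start. Inside the gene and in both flanks it had 3 regions with 0% in the control and a knockout mean of 31.6%, 31.5% and 33.33%, and 1 further region at 3.64% to 0.595%. At RPL18, the region 36 bases upstream of the start had 0.631% and 2.38%. Inside the gene, 913 bases from FAM83E and within 1000 bases of a listed start of FAM83E, the level went from 65.8% to 31.9%. At 2947 bases upstream, inside SPHK2, a sphingosine kinase gene, it went from 0% to 66.2%. The last region of RPL18, inside FAM83E, went from 0% to 31.1%.

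The value of about one part in 3 recurs in the knockout column. Among the 88 member regions, 16 (18.2%) in 11 genes combined 0% in the control with 25% to 33.33% in the knockout, and none of the 16 was near a start. Over the whole deposit, 7367 regions (20.97%) had such a pair of means. The reverse, 0% in the knockout with 25% to 33.33% in the control, was found in no member region and in 797 of the whole table. Levels of single libraries were not analysed here, so how these means are made up over the 3 libraries was not tested. In 21 member regions, 1 mean was 0 and the other at least 20 points away. All 21 had a Kolmogorov-Smirnov p of 1 in the authors' deposited table, while the Mann-Whitney p ran from 2.85e-06 to 0.12. In the whole table the Kolmogorov-Smirnov p was 1 in 9904 of 9908 such regions. All 21 member regions also had q = 1, so none of them could be called.

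Several of the widest differences belong to that kind. RPS24, a Diamond-Blackfan gene of the small subunit, had 0% in the control and 50.4% in the knockout over 7 sites, 1144 bases upstream (chromosome 10, 78032416 to 78032719). RPL35A, another such gene, had its 1 region 4247 bases away inside LMLN, with 48.1% in the control and 0% in the knockout over 9 sites (chromosome 3, 197960857 to 197960967). That region lies within 1000 bases of listed starts of LMLN and DRC9. A region of 44 sites assigned to RPL22 lies 4315 bases from it inside CHD5, a chromatin remodeller gene, and went from 0% to 32.4% (chromosome 1, 6180242 to 6180705). All 3 had q = 1 in the authors' deposited table. The Mann-Whitney p was 0.00367 at RPS24, 2.53e-05 at RPL35A and 2.85e-06 at RPL22.

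Other flank regions carried intermediate or high levels in both groups. RPS9 had 32.9% in control and 77.6% in knockout cells at 1298 bases beyond the gene (chromosome 19, 54208945 to 54208995, q = 0.0743 in the authors' deposited table), and 0% to 28.9% further on, at 1778 bases. RPL36 had 49.0% and 80.3% over 20 sites, 85 bases beyond the gene and inside LONP1, a mitochondrial protease gene (chromosome 19, 5691960 to 5692083, q = 0.025 in the authors' deposited table). Its start had 0.695% and 1.47%. RPL12 had a single region, 2673 bases away in ZNF79, at 50% and 31.1%. RPS23 had 85.2% and 98.3%, RPS16 71.1% and 78.6% beside a second region at 0% and 29.3%, and RPL13 64.2% and 53.0% inside the gene. Levels of this order were thus present around ribosomal protein genes in the control already, outside the starts.

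Remaining flank values were low or mixed. RPL17, RPL4 and RPL41 each had a single region, at the start of a neighbour, with 1.95% to 0.843%, 1.51% to 3.01% and 1.29% to 0.919%. RPS7 had a flank region at 6.67% and 32.8%, RPL7 a pair at 0% to 29.9% and 20.0% to 33.33%, and RPL19 one at 8.79% and 2.61% at the start of CACNB1. RPL36 had a further pair, at 0% to 32.1% and 0% to 30.7%. Low in both groups were the flank regions of RPS29 (3.51% and 0.317%), RPL7A (0.878% and 2.20%), RPL8 (0.303% and 3.09%) and RPS2 beside NDUFB10 (1.09% and 1.21%). RPS19, RPS13 and RPS2 each had a region away from the start that went from 0%, to 33.33%, 33.33% and 32.5%. The nearest of these, in RPS13, lay 1181 bases upstream, on the far side of the region at 8.49% and 1.99%.

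The 34 members with no region included RPL5 and RPL11, which with 5S ribosomal RNA bind MDM2 and so stabilize p53, RPS14, the gene of the 5q- syndrome, RPS6, the substrate of the S6 kinases, and RPSA, also known as the laminin receptor precursor. Among the others without one were RPL3, RPL6, RPL9, RPL14, RPL15, RPL21, RPL23, RPL24, RPL26, RPL27A, RPL29, RPL30, RPL31, RPL32, RPL34, RPL35 and RPL37A of the large subunit, and RPS3, RPS3A, RPS10, RPS12, RPS15A, RPS20, RPS25, RPS27 and RPS27A of the small subunit. That a gene is not listed gives no level for it. Promoter windows of members with a near-start region held a median of 3 CCGG sites and 29 CG dinucleotides, those of the other members 1 and 20. CCGG was present in 21 of 21 windows of the first kind and in 31 of 37 of the second.

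Grouped by role, the large subunit had 46 regions in 21 genes with both called regions, and a median of 1.59% in control and 3.05% in knockout cells. The small subunit with RPS19BP1 had 40 regions in 18 genes with none called, beside 6.74% of all regions called in either direction, and its median was 0.948% in control and 3.21% in knockout cells. Of 21 genes listed for Diamond-Blackfan anemia, 11 had 18 regions, none called, a number too small to set against that share, and all 9 of their near-start regions were under 10% in both groups. Over all 88 regions the median was 1.49% in the control and 3.09% in the knockout, and the median difference was 1.71 points (0.117 to 2.92), beside 17.4 points over the whole table. Over regions of at least 10 sites the median difference was 31.6 points in the 12 member regions and 28.7 points in the whole table, so that contrast does not hold there. It also sets unlike positions side by side, since 36 of the 88 lay near a start. Near starts alone, the median difference was -0.43 points in members and 1.91 points over all protein-coding genes. Without RPS19BP1 the members' median difference over all positions was 1.66 points (-0.20 to 3.04), an interval with both signs. Both means were under 10% in 55.7% of member regions and in 17.1% of all. Within 1 kb of the gene the members' median difference was -0.37 points (-1.56 to 1.65). That interval holds both signs, so no direction is shown close to the gene.

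Other genes of ribosome production and translation were described in the same way. Mitochondrial ribosomal protein genes, which build the separate ribosome of that organelle, had 96 regions in 47 of 77 genes, and 34 of 43 near-start regions were under 10% in both groups (79.1%, 64.0 to 89.96). Ribosome biogenesis factors had 16 of 21 (76.2%), translation factors 17 of 23 (73.9%) and RPS6 kinase genes 4 of 10 (40%). The ribosomal protein-like genes left out by the rule had 6 regions in 5 of 8 genes, all under 10% in both groups. Differences between these lists were not tested.

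**Figure D5:**
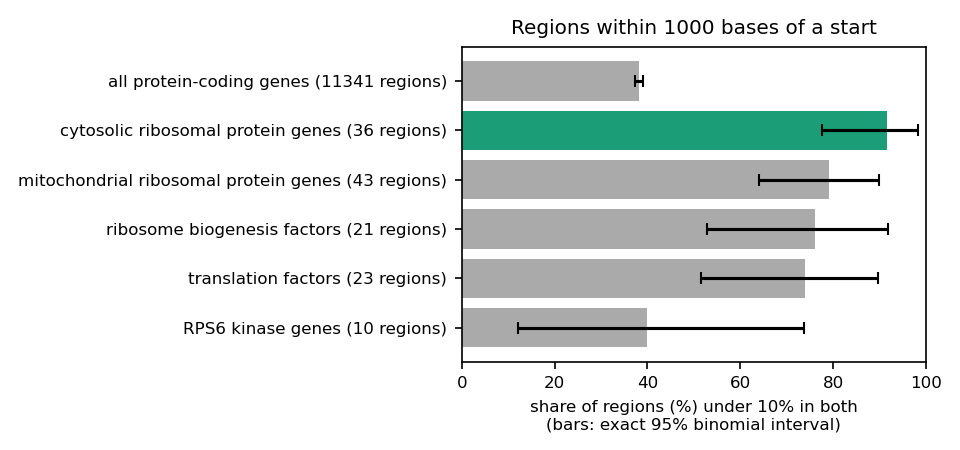
Share (%) of regions within 1000 bases of a start whose mean was under 10% in both groups, for cytosolic ribosomal protein genes (green), all protein-coding genes and the other lists (grey), with exact 95% binomial intervals over regions. The share is 91.7% for cytosolic ribosomal protein genes, 38.2% for all protein-coding genes and 40% for RPS6 kinase genes.

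Over all regions 6.74% were called in either direction, and the 5 called regions of these lists were all higher in the knockout. RPS6KA2, an S6 kinase family gene, had 2 of the 26 regions of its list called, at 13.0% to 66.7% and 16.2% to 46.0%. The mitochondrial list had 1 of 96, inside MRPL34, at 33.0% to 79.2%. The biogenesis factor list had 1 of 43, 2122 bases from PES1, at 32.1% to 76.8%, and the translation factor list 1 of 50, 4144 bases from EIF3D, at 8.86% to 38.2%.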

How the data were processed

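The authors deposited 1 table of regions with a methylation mean per group in percent, the difference in percentage points, a number of sites, a Mann-Whitney p-value, a 2-dimensional Kolmogorov-Smirnov p-value and a q-value, per the file headers. Tools listed in the submitters' processing notes are Bismark, HISAT2, methylKit, FastQC and Trimmomatic, with the build hg38 and no roles or versions. Which program defined the regions is not given in the sources at hand. Counts per library were not analysed here, so no new test was made.

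Members and lists were chosen with earlier results of these data known. Gene spans, starts and sequences are RefSeq's (GRCh38.p14), read with Python 3.11.15, pandas 2.3.3, numpy 2.4.6 and scipy 1.17.1, and figures used matplotlib 3.10.9. Printed coordinates are 1-based: the deposited start plus 2 and stop plus 1, since both ends then fell on CpG cytosines in 2419 of 2419 regions wholly inside promoter windows, and the start plus 1 did so in 1238. Regions went to every member within 5 kb. Near start means within 1000 bases of the nearest listed start, or of either gene end where no strand is given. Shares have exact 95% binomial intervals over regions. Called regions needed a q under 0.01 and 25 points. Assignment, adjustment and intervals were tested on simulated data.

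Genes named were those with a called region, the 5 with the largest gain and the 5 with the largest loss in a region, the 5 with most regions, the 5 with the highest near-start control level, and RPS19, RPL5, RPL11, RPS14, RPSA, RPLP0, RPLP1, RPLP2, RPL13A, RPS6, RPL22 and RPS24. Others were added after their values were seen, to account for the members, of which a few are not reported here by name. Alternatives covered both thresholds, the adjustment, the reach, the nearest gene and the number of sites, and, chosen after seeing the data, leaving out RPS19BP1 and, for medians and shares, keeping only regions nearest to the member.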

Additional observations from a re-analysis of the deposited data

How the results depend on the processing

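The share of all regions called is given after each count. The 2 called of 88 (6.74%) became 1 at 40 points (RPL13A, 3.42%), 0 at a q under 0.001 (3.31%) and 1 of 12 with at least 10 sites (RPL23A, 16.0%). Of the regions kept by other assignments (6.74% throughout), 0 of 26 were called within gene spans, 1 of 47 within 1 kb and 1 of 46 where only the nearest gene was taken, both RPL13A. Benjamini-Hochberg adjustment of the deposited Kolmogorov-Smirnov p over all regions left 1 (4.12%), RPL23A, with RPL13A at an adjusted p of 0.0239. Adjustment of the Mann-Whitney p gave 6 (8.70%), among them RPL22, RPL23A, RPL35A, RPL36 and RPL38, 5 higher and 1 lower, with RPL13A at 0.0262. In the other 5 alternatives the count was 2 or 3. It was 3 at 10 points (8.60%), 2 higher and 1 lower, the last at RPS18, and 3 at a q under 0.05 (10.5%). Within 10 kb it was 3 of 130 (6.74%). With at least 5 sites it was 2 of 88 (6.79%), and without RPS19BP1 2 of 84 (6.74%). The median difference of 1.71 points was 0.108 within spans, -0.37 within 1 kb and 31.6 with at least 10 sites, where the whole table had 28.7 in place of 17.4. Without regions at 0 in 1 group and 25% to 33.33% in the other it was 0.595 (-1.08 to 1.75), beside 4.15 in the whole table. The share under 10% in both groups, 55.7%, was 80.8% within spans, 76.6% within 1 kb, 44.6% within 10 kb and 25% with at least 10 sites, where the whole table had 4.68% in place of 17.1%. The near-start share of 91.7% became 100% with at least 10 sites, where 1 region was left. Narrower reach and higher site minimums leave fewer regions, and the cause of the other changes was not tested. No paired analysis was possible because the table holds 1 mean per group, and for the same reason no replicate could be left out. Depth is unknown, so no limit from it can be given.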
